A study of Mus musculus with 3 samples.

Results

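The variable segments of the T cell receptor beta chain (Trbv) were described in total RNA-seq libraries of mouse cells labelled as T-helper 1, a subset of CD4 T cells known for making interferon gamma. They were taken as every annotated feature whose GENCODE symbol starts with Trbv, which gave 35 of the 50600 features in the deposited count tables. Of these, 22 carry the GENCODE class TR_V_gene, for segments held to be functional, and 13 the class TR_V_pseudogene. The study had 1 group of 3 libraries of primary cells from strain C57BL/6NJ, labelled biological replicates 1, 2 and 3, with separate biosamples and a single donor identifier. Age was given as unknown and sex as not collected, no treatment or allele was named beyond a differentiation protocol, and the header of each table carried a time of 0 hours. With 1 group, every comparison was between segments or between libraries. Nothing in the labels says whether the libraries came from separate animals. The p-values below only set differences between these libraries against counting error.

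A beta chain gene is assembled in each developing T cell by V(D)J recombination, which joins 1 variable segment to a diversity (Trbd) and a joining (Trbj) segment, and splicing then links that exon to the constant gene Trbc1 or Trbc2. The variable segment encodes the leader peptide, most of the antigen-binding domain and the start of CDR3, the loop that contacts the peptide. A population of T cells therefore carries a mixture of variable segments, known as its V usage, and antibodies against single families are used to follow it. Most segments lie upstream of the D, J and C segments in the same orientation, while Trbv31 lies downstream of Trbc2 in the opposite orientation and is joined by inversion of the DNA between.

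The 35 segments lay on chromosome 6 between 40891229 and 41558452 (mm10), a span of 667.2 kb, with 34 on the plus strand and Trbv31 alone on the minus strand. The ends of the segments show where CDR3 begins. The last 30 bases of the segments with the most counts and of Trbv31 are given below from GENCODE M21 transcripts of the mm10 assembly, each read along its own strand, with the conserved cysteine codon and all bases after it in capitals.
Trbv13-2: catcagtgtacttcTGTGCCAGCGGTGATG
Trbv13-1: catctttgtacttcTGTGCCAGCAGTGATG
Trbv13-3: cagctgtatatttcTGTGCCAGCAGTGATG
Trbv2: ggccacatacttcTGTGCCAGCAGCCAAGA
Trbv3: gtgtacttcTGTGCCAGCAGCTTAGCCACA
Trbv15: agctgtgtatctgTGTGCCAGCAGTTTAGC
Trbv19: tggccgtttttctcTGTGCCAGCAGTATAG
Trbv1: cagaaccttgtacTGCACCTGCAGTGCAGA
Trbv31: ctggcttctacctcTGTGCCTGGAGTCTCA

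In the first 7 of these the capitals open with TGTGCCAGC, which encodes the cysteine, alanine and serine that begin many beta chain CDR3 loops. Within the last 30 bases, on either strand and with no other motif searched, TGTGCCAGC occurred in 13 of 22 TR_V_gene segments (59.1%) and in 4 of 13 pseudogene segments (30.8%). The same 9 letters stood there in none of 167 transcripts of alpha chain variable segments (Trav) and in 33 of 141681 other transcripts (0.0233%). Trbv16 (TGTGCAAGC) and Trbv17, Trbv21 and Trbv29 (TGTGCTAGC) encode the same residues with other letters, so the 59.1% counts letters and not residues. Trbv1 and Trbv31 also have other letters at this place, and both had counts in every library.

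The label was checked against marker genes. All 7 listed genes of alpha-beta T cells had counts in all 3 libraries, among them Cd4, which encodes the helper co-receptor, with 1849, 2807 and 662 counts in replicates 1, 2 and 3. The genes of the CD8 co-receptor, which marks cytotoxic T cells, had 0, 1 and 0 counts for Cd8a, against 27, 53 and 17 for Cd8b1. Of the genes that define the Th1 subset, Tbx21, its transcription factor, and Ifng, its cytokine, each had 1, 3 and 0 counts, and the receptor gene Cxcr3 had 0 in each library. Of 4 gamma-delta T cell genes, Trdc had 22, 33 and 12 counts and the other three had at most 2 in a library. Of 6 B cell genes, Ighm had 842, 1300 and 207 counts and Cd79a 91, 138 and 108, while Igkc and Ms4a1 were at 0 in all libraries. The summed level of the alpha-beta list was 2292, 3946 and 992 TPM (length-scaled abundance, computed here from the counts) in replicates 1, 2 and 3.

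Depth was 3647366, 4305077 and 2510319 counts in replicates 1, 2 and 3. A fragment was counted for a feature only where its first read had the feature's strand, and the sources used here do not give the orientation that the library kit yields. In the mitochondrial genome, whose genes lie mostly on the plus strand, the minus-strand gene mt-Nd6 (519 bases) had 20191, 20392 and 21040 counts, and the plus-strand gene mt-Co1 (1545 bases) had 9015, 14727 and 2276. The shorter mt-Nd6 thus had more counts than mt-Co1 in every library. If a stranded kit gave the opposite orientation, the counts above and below would stand for fragments read from the other strand. That would hold for the marker genes, those with few or no counts included, and for the usage read from segment counts. Which orientation the kit gave was not tested. No Trbv segment shares exonic bases with an annotated gene of the other strand.

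Variable segments held 1037, 1791 and 348 counts in replicates 1, 2 and 3, which were 0.0284%, 0.0416% and 0.0139% of each library. The constant genes Trbc1 and Trbc2 together held 1356, 2560 and 459 counts, of which Trbc1 had 631, 1158 and 213 and Trbc2 had 725, 1402 and 246. The libraries stood in the same order for both classes, with replicate 2 highest and replicate 3 lowest. Trbv counts per Trbc count were 0.765, 0.700 and 0.758 in replicates 1, 2 and 3 (0.741 ± 0.0359, SD, n = 3), so that this ratio varied far less than the counts did. The 14 joining segments held 191, 357 and 82 counts, or 0.141, 0.140 and 0.179 per Trbc count, with replicate 3 highest. The joining segments upstream of Trbc1 (Trbj1) held 92, 195 and 46 of these, and those upstream of Trbc2 (Trbj2) held 99, 162 and 36. The 2 diversity segments, which are only a few bases long, held 18, 38 and 7 counts. In bulk RNA, fewer cells using a segment and less receptor RNA per cell cannot be told apart. The plus-strand gene mt-Co1 stood in the same order of libraries, with 9015, 14727 and 2276 counts. The minus-strand gene mt-Nd6 did not, with 20191, 20392 and 21040. Whether the libraries differ in how far fragments of the counted strand were captured was not tested.

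The segment with the most counts in every library was Trbv13-2 (older name Tcrb-V8.2, 41121396 to 41121832), with 184, 287 and 62 counts in replicates 1, 2 and 3. These were 17.7%, 16.0% and 17.8% of all Trbv counts, with exact (Clopper-Pearson) 95% intervals of 15.5% to 20.2%, 14.4% to 17.8% and 13.9% to 22.3%. Intervals here and below cover counting error only, since PCR copies were not told apart. The 3 intervals overlapped, and the share was 17.2 ± 1.01% (SD, n = 3). By summed counts Trbv2 (Tcrb-V4) followed, with 89, 174 and 35 counts and a share of 9.45 ± 0.772%. Within replicates 1, 2 and 3 it ranked 3, 2 and 4 by counts. Trbv13-1 (Tcrb-V8.3) had 81, 140 and 30 counts and a share of 8.08 ± 0.466%. For each of these 3 segments the intervals of the libraries overlapped.

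Among the next segments some differed between libraries and others did not stand apart. Trbv15 (Tcrb-V12) had 59, 126 and 40 counts in replicates 1, 2 and 3, or 5.69%, 7.04% and 11.5% of Trbv counts (8.07 ± 3.04%, n = 3). Trbv3 (Tcrb-V16) had 105, 168 and 14 counts, or 10.1%, 9.38% and 4.02% (7.84 ± 3.33%). Trbv1 (Tcrb-V2), the segment farthest upstream, had 57, 113 and 38 counts, or 5.50%, 6.31% and 10.9% (7.58 ± 2.93%). Trbv15 and Trbv1 were thus high in replicate 3, and Trbv3 was low there. Trbv13-3 (Tcrb-V8.1) had 69, 113 and 29 counts and a share of 7.10 ± 1.08%, with overlapping intervals. Trbv19 (Tcrb-V6) had 76, 122 and 10 counts, or 7.33%, 6.81% and 2.87% (5.67 ± 2.44%), and was also low in replicate 3. Trbv16 (Tcrb-V11) had 54, 77 and 22 counts with a share of 5.28 ± 1.01%, and Trbv26 (Tcrb-V3.1) had 54, 81 and 9 counts with a share of 4.11 ± 1.36%, and for both the intervals overlapped.

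**Figure D1:**
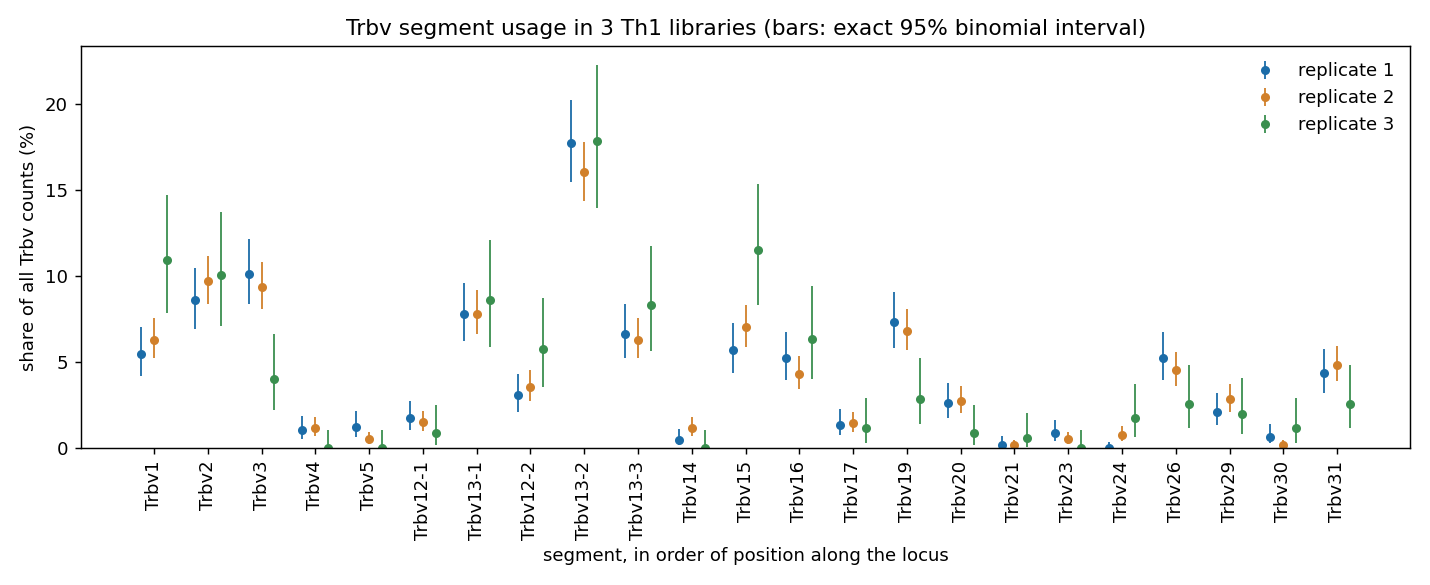
Share of all Trbv counts (%, vertical axis) for the 22 TR_V_gene segments and Trbv24 in order of position, with points for replicates 1, 2 and 3 and bars for exact 95% binomial intervals. Trbv13-2 stands highest in each library, and the points of Trbv1 and Trbv15 lie higher, and those of Trbv3 and Trbv19 lower, in replicate 3 than in replicates 1 and 2.

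Usage was uneven in all 3 libraries. The 3 segments with the most counts in a library held 36.5%, 35.1% and 40.2% of Trbv counts in replicates 1, 2 and 3, and the top 10 held 79.9%, 78.8% and 86.2%. The effective number of segments, the inverse of the summed squared shares, was 12.3, 12.9 and 10.7 out of 35. Replicate 3 had the most uneven usage and also the fewest Trbv counts. At the low end, 8 TR_V_gene segments (Trbv4, Trbv5, Trbv12-1, Trbv14, Trbv17, Trbv21, Trbv23 and Trbv30) had under 50 counts over the 3 libraries, between 7 and 48 each. Together they held 7.62%, 6.65% and 3.74% of Trbv counts in replicates 1, 2 and 3.

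Levels were compared between segments per base, as each segment's counts divided by its exon length and expressed as a share of the sum over all 35. On this scale Trbv13-2 held 19.9 ± 1.04% (SD, n = 3), ahead of Trbv13-1 at 8.67 ± 0.398%, Trbv15 at 8.54 ± 3.11% and Trbv13-3 at 8.19 ± 1.15%. Trbv1 at 7.11 ± 2.66%, Trbv3 at 6.79 ± 2.93% and Trbv2 at 6.62 ± 0.503% came next, Trbv2 lower than by counts because its exons add up to 560 bases against 340 for Trbv13-2. Below them stood Trbv16 (5.20%), Trbv26 (4.40%), Trbv12-2 (4.21%), Trbv19 (3.95%), Trbv31 (3.70%), Trbv29 (2.59%) and Trbv20 (2.43%), and Trbv12-1 and Trbv17 had 1.38% each. The lowest TR_V_gene segment was Trbv21, at 0.318% with 2, 3 and 2 counts, a mean per-base share 62.5 times under that of Trbv13-2. Of the 34 pairs of neighbours in the order, 2 differed by more than the larger SD of the pair: Trbv13-2 against Trbv13-1, and Trbv2 against Trbv16. In 5 of the 34 pairs the order was the same in all 3 libraries. The variable exons of Trbv2 and Trbv13-2 have 295 and 294 bases, and their annotated first exons 265 and 46. The order per base thus depends partly on how much first exon is annotated for each segment.

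The Trbv13 subfamily, the former V beta 8 family, held 334, 540 and 121 counts in replicates 1, 2 and 3, or 32.2%, 30.2% and 34.8% of Trbv counts (32.4 ± 2.31%, n = 3). The Trbv12 subfamily, which alternates with it along the chromosome, held 50, 91 and 23 counts, or 4.82%, 5.08% and 6.61%. Within it Trbv12-2 (Tcrb-V5.1) had 32, 64 and 20 counts, Trbv12-1 (Tcrb-V5.2) had 18, 27 and 3, and the pseudogene Trbv12-3 had 0 in each library. All 3 Trbv13 members were among the 7 segments with the most summed counts. Their order by counts was the same in all libraries, with Trbv13-2 first and Trbv13-3 last. In replicate 3 the counts of Trbv13-1 and Trbv13-3 were only 30 and 29. Per base Trbv13-2 was first in every library, but Trbv13-3 stood below Trbv13-1 in replicates 1 and 2 and above it in replicate 3.

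These subfamilies are the segments whose counts could most be affected by shared sequence, since fragments that map to several places were not counted. The last 120 bases of the 3 Trbv13 segments show how far they differ, with bases that differ from Trbv13-2 in capitals.
Trbv13-2: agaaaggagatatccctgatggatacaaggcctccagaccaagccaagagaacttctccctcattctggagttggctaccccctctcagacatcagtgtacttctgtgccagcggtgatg
Trbv13-1: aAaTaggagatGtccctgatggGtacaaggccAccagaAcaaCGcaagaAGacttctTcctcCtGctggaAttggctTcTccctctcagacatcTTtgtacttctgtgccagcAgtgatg
Trbv13-3: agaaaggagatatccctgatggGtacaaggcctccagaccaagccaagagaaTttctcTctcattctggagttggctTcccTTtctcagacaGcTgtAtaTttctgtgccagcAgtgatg

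Over this stretch Trbv13-1 differed from Trbv13-2 at 19 positions and Trbv13-3 at 11. Over the whole variable exon, identity was 91.8% between Trbv13-2 and Trbv13-3, 88.8% between Trbv13-1 and Trbv13-2, 86.1% between Trbv13-1 and Trbv13-3 and 89.1% between Trbv12-1 and Trbv12-2. Of the 231 pairs of TR_V_gene segments these were the 4 above 80%, beside a median of 56.4%. Of the 291 possible 50-base stretches of the Trbv13-2 transcript 1 occurred also in Trbv13-3, and Trbv12-2 shared 4 stretches with Trbv12-3. Trbv4 and Trbv5 are uncertain for another reason. Both lie inside 5830405F06Rik, an annotated transcript of the same strand with 7, 4 and 0 counts, which covers 295 and 292 of their exonic bases, and by featureCounts' default rule a fragment assigned to both would go to neither. Trbv4 had 11, 21 and 0 counts and Trbv5 had 13, 9 and 0, so both may be undercounted.

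Trbv31 (Tcrb-V14, 41557691 to 41558452, minus strand) was the single segment on the other strand. It had 45, 87 and 9 counts in replicates 1, 2 and 3, which were 4.34%, 4.86% and 2.59% of Trbv counts (3.93 ± 1.19%, n = 3). Per base it ranked 11, 10 and 11 among the 22 TR_V_gene segments, near the middle in every library. Its per-base share was 4.10%, 4.60% and 2.40%, against medians of 3.16%, 3.68% and 2.21% for the 21 TR_V_gene segments on the plus strand. Summed over the libraries, it had 337 counts per kb of exon, against 366 for those 21 together. Relative to the constant genes it had 3.32, 3.40 and 1.96 counts per 100 Trbc counts, lowest in replicate 3.

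Other annotated features of the locus were counted on each strand. The 12 features on the minus strand that are no receptor segment had 0, 1 and 0 counts in replicates 1, 2 and 3, or 0.0926 counts per kb. The 16 on the plus strand had 16, 12 and 15 counts, or 3.75 per kb, but 5830405F06Rik and AC153851.1 among them share exonic bases with Trbv4, Trbv5, Trbv8 and Trbv10. The 14 that share none had 8, 6 and 11 counts, or 2.94 per kb. Trbv31 stood at 337 counts per kb on the minus strand, where the other features together had 1 count. Those features set no background level for the strand, since whether these cells transcribe them was not tested. Prss2, a trypsinogen gene on the plus strand, led the non-receptor features of the locus with 7, 6 and 11 counts. The other 5 listed trypsinogen genes of the locus (Try4, Try5, Try10, Prss1 and Prss3) were at 0 in all libraries.

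**Figure D2:**
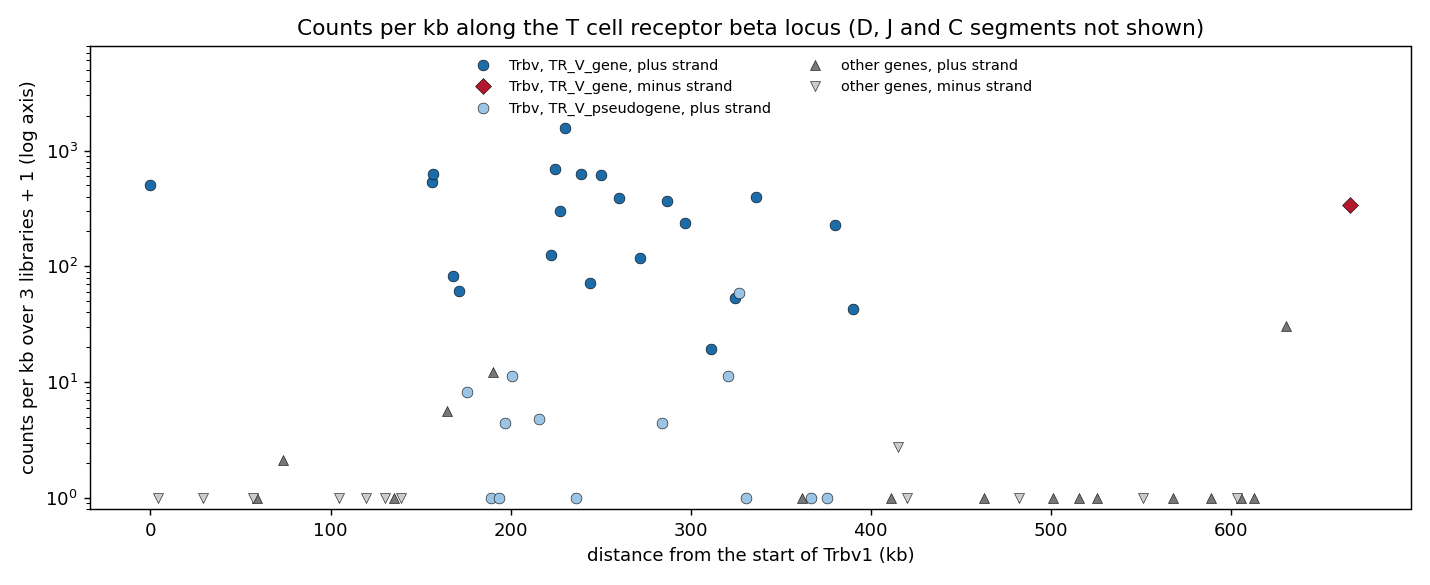
Counts per kb of exon summed over the 3 libraries plus 1 (log axis) against distance from the start of Trbv1 (kb), for Trbv segments by class and strand and for other annotated genes by strand. TR_V_gene segments stand above the pseudogenes and the other genes, except that Trbv21, Trbv23 and Trbv30 lie below the pseudogene Trbv24 and Trbv21 also below Prss2, and Trbv31 (diamond, minus strand) lies at 337 counts per kb, near the plus-strand segments.

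Functional and pseudogene segments differed in their counts, with some overlap at the low end. The 22 TR_V_gene segments had 1033, 1771 and 341 counts in replicates 1, 2 and 3. The 13 pseudogenes had 4, 20 and 7. Per kb of exon these were 120, 205 and 39.5 counts for TR_V_gene segments and 1.02, 5.10 and 1.79 for pseudogenes. Over the 3 libraries, 21 of 22 TR_V_gene segments and 1 of 13 pseudogenes reached 10 summed counts, the exceptions being Trbv21 with 7 and Trbv24 with 20. All 22 TR_V_gene segments had counts in replicates 1 and 2, and 18 had counts in replicate 3. Trbv4, Trbv5, Trbv14 and Trbv23 were at 0 there, which at 348 Trbv counts allows a share of up to 0.862% each by a limit of 3 counts, and up to 1.05% by the exact interval used for the other shares. Trbv14 had 5, 21 and 0 counts and Trbv23 had 9, 9 and 0. Of the pseudogenes, Trbv22 had 1 count in each library, Trbv10, Trbv6, Trbv11, Trbv18 and Trbv9 had between 1 and 3 in all, and Trbv7, Trbv8, Trbv12-3, Trbv25, Trbv27 and Trbv28 had none. Trbv8 lies wholly inside AC153851.1, a feature of the same strand, so a count of 0 for it is uncertain.

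Trbv24 (Tcrb-V17) was the pseudogene with the most counts, at 0, 14 and 6 in replicates 1, 2 and 3. Its share was 0%, 0.782% and 1.72%, and the interval of replicate 1 (up to 0.355%) did not overlap those of replicate 2 (0.428% to 1.31%) and replicate 3 (0.635% to 3.72%). GENCODE classes it as a pseudogene and RefSeq as a V segment, and Trbv29, with 22, 51 and 7 counts, is a TR_V_gene in GENCODE and a pseudogene in RefSeq. Read in the frame of Trbv26 by alignment, Trbv24 has a stop codon 23 bases before the end of the variable exon, where Trbv26 has a tyrosine codon. A stop codon is not confined to the pseudogenes, as the TR_V_gene Trbv4 has 1 in its annotated frame, after the cysteine codon. Trbv24 and Trbv26 are 75.3% identical, and their last 30 bases are shown with the aligned codon in capitals.
Trbv24: agcactgTAGctctgtgccagcagtctgta
Trbv26: agcactgTACctctgtgccagcagtctgtc

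Shares of the segments were alike in replicates 1 and 2 and less so in replicate 3. Across the 35 segments, Pearson's r between the shares was 0.989 for replicates 1 and 2, 0.873 for 1 and 3 and 0.903 for 2 and 3 (Spearman's rho 0.949, 0.856 and 0.893). These values describe segments of the same locus, which are not independent points and which share each library's depth. The largest difference between replicates 1 and 2 was 1.72 percentage points, for Trbv13-2, and between replicates 1 and 3 it was 6.11 points, for Trbv3. The exact intervals of Trbv1, Trbv3, Trbv15 and Trbv19 in replicate 3 overlapped neither that of replicate 1 nor that of replicate 2. Among the 22 TR_V_gene segments no interval pair of replicates 1 and 2 was apart.

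**Figure D3:**
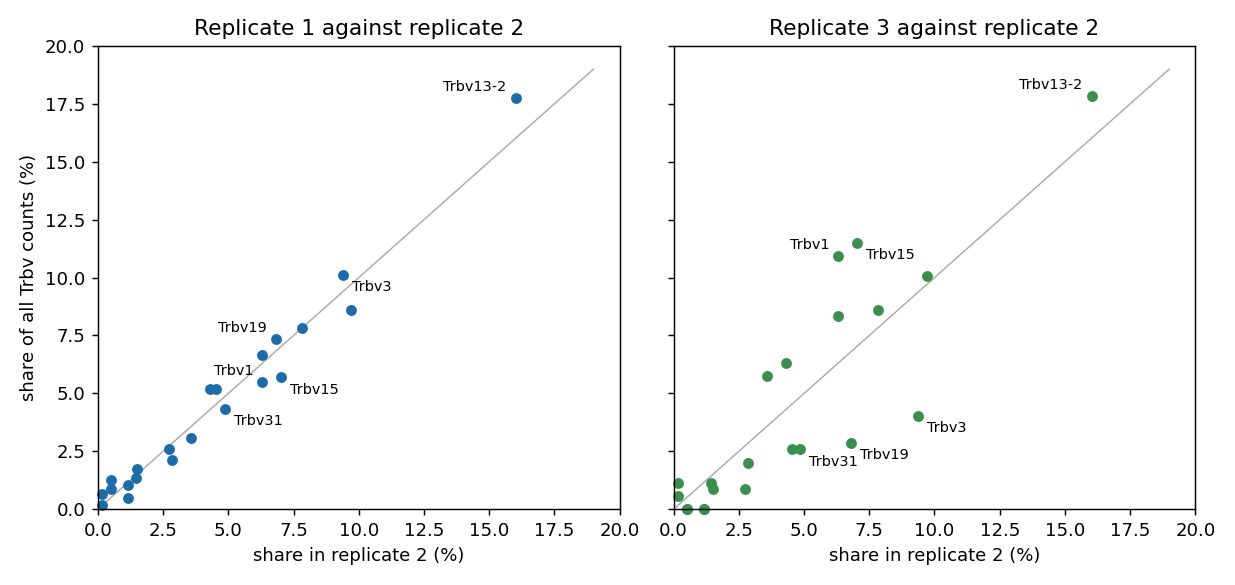
Share of Trbv counts (%) of the 22 TR_V_gene segments in replicate 1 (left) and replicate 3 (right) against the share in replicate 2, with a line of equal shares. Points lie near the line on the left, where the largest gap is 1.72 points, and on the right Trbv1 and Trbv15 lie above it and Trbv3 and Trbv19 below it.

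Variation between the 3 libraries was tested for each feature against counting error with a Poisson chi-square test, with TMM scaling (edgeR's trimmed-mean normalization) and adjusted by Benjamini-Hochberg over all 10662 features that passed a filter on low counts. Of the 35 segments 13 passed that filter, the rest being too low to enter. Of these 13, 9 were called as varying, beside 67.1% of all tested features, and a share this near the background is no result about the segments. The 9 were Trbv3 (adjusted p = 1.78e-07), Trbv19 (1.27e-05), Trbv31 (6.28e-04), Trbv2 (9.44e-04), Trbv13-2 (0.00121), Trbv26 (0.00312), Trbv29 (0.0162), Trbv15 (0.0214) and Trbv13-1 (0.022). Trbv1, Trbv12-2, Trbv13-3 and Trbv16 were not called. The tested segments had a median log2 difference of -0.76 in replicate 3 against replicate 2, beside -0.20 over all tested features, and of -0.35 in replicate 1 against replicate 2, beside -0.08. The summed TPM of the alpha-beta T cell list differed between the libraries in the same order, and its part in these calls was not tested. With replicate 3 left out, Trbv2 and Trbv15 were called of 17 tested segments, beside 32.5% of all tested features. With replicate 2 left out, 5 of 12 were called, beside 49.7%. Leaving out a library also changes which segments are tested and the degrees of freedom.

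Scaling to the constant genes was added after the values were seen, to compare usage among receptor transcripts. Scaled to the summed Trbc1 and Trbc2 counts, 4 of the 13 segments were called, beside 70.1% of all tested features. Variable segments and constant genes lie on the same transcripts, so this scaling removes their shared changes by construction. The 4 of 13 and the 70.1% are therefore not comparable. Per 100 Trbc counts, Trbv1 had 4.20, 4.41 and 8.28 counts in replicates 1, 2 and 3 (adjusted p = 0.00212, Poisson chi-square test), and Trbv15 had 4.35, 4.92 and 8.72 (0.00233). Trbv3 had 7.74, 6.56 and 3.05 (0.00536) and Trbv19 had 5.61, 4.77 and 2.18 (0.0222). Trbv1 and Trbv15 were therefore highest in replicate 3, and Trbv3 and Trbv19 lowest. The adjusted p-values take the Trbc counts, only 459 in replicate 3, as exact and allow for counting error of the segments alone. Trbv13-2 had 13.6, 11.2 and 13.5 counts per 100 Trbc counts and Trbv31 had 3.32, 3.40 and 1.96, and neither was called. The 4 called segments are the same 4 TR_V_gene segments whose intervals of share stood apart. This is no second line of evidence, since both rest on the same counts. The pseudogene Trbv24, whose intervals also stood apart, was too low to be tested. With 14 and 10 counts for Trbv3 and Trbv19 in replicate 3, depth limits how closely these values can be set.

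**Figure D4:**
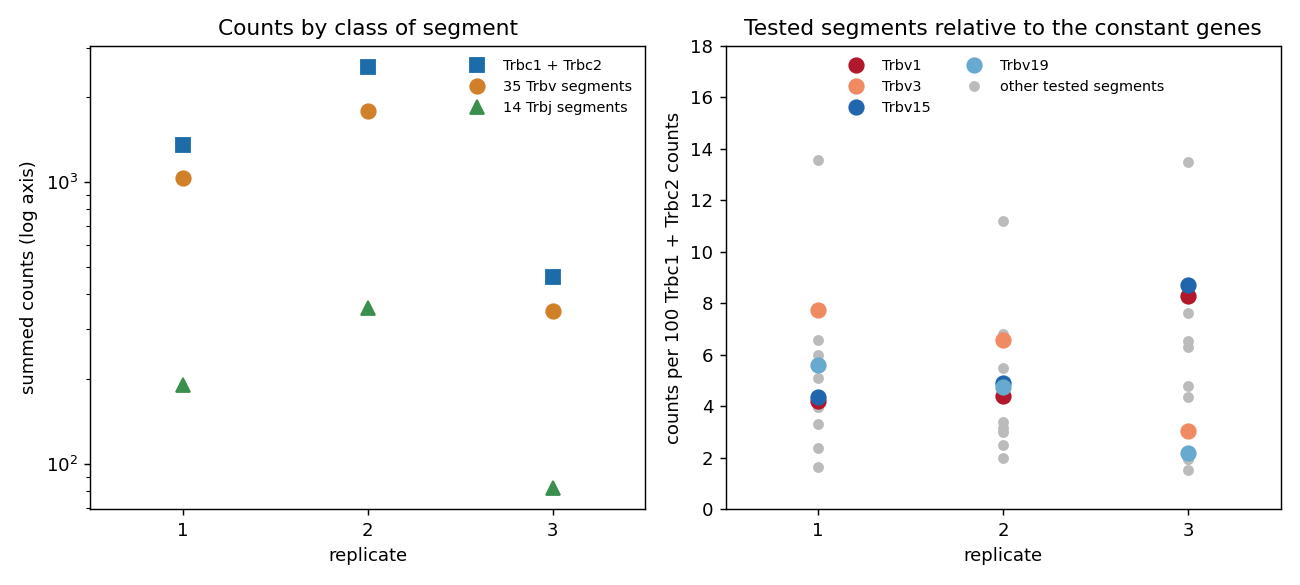
Left, summed counts (log axis) of the constant genes, variable segments and joining segments in replicates 1, 2 and 3; right, counts per 100 Trbc counts of the 13 tested segments, with the 4 called under this scaling in colour. Replicate 2 is highest and replicate 3 lowest in all 3 classes on the left, and on the right Trbv1 (8.28) and Trbv15 (8.72) lie highest, and Trbv3 (3.05) and Trbv19 (2.18) lowest, in replicate 3.

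Other antigen receptor loci give the scale of these counts. The 128 Trav segments of the alpha chain held 414, 560 and 218 counts in replicates 1, 2 and 3, fewer than the 35 Trbv segments, and 74 of them had a count, against 29 of 35 for Trbv. Trav members include many near-identical copies, so their counts are uncertain under counting without multi-mapping fragments. The 6 Trdv segments of the delta chain held 43, 56 and 54 counts, lowest in replicate 1, whereas Trbv was lowest in replicate 3. The 6 Tcrg-V segments of the gamma chain held 1 count over all libraries. Of the immunoglobulin segments, the 185 Ighv segments held 11, 5 and 3 counts and the 160 Igkv segments 0, 1 and 0, while the constant gene Ighm had 842, 1300 and 207.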

How the data were processed

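The deposited tables hold raw counts of fragments per feature, which the authors obtained from featureCounts 1.4.6-p4 and GENCODE M13, per the file headers, with strand setting 1, both ends mapped and no option to count multi-mapping or multi-overlapping fragments. A fragment that spans a variable segment and another annotated segment may therefore not be counted. The assembly is mm10, per the labels, and the sources used here give neither the aligner's version nor the library kit. GENCODE M21 named 50376 of 50600 identifiers by gene ID, and gave the transcript sequences.

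Shares with exact 95% intervals (scipy 1.17.1), shares per base, TPM, global alignments (Biopython 1.88) and the Poisson chi-square test (2 degrees of freedom, TMM from edgeR 4.0.16 in R 4.3.3, filterByExpr, adjusted p of 0.05) were computed here. The chi-square test was tried on simulated counts with set changes in some features and no variance beyond counting error. Over the tested features of these libraries edgeR's common dispersion, the variance beyond counting error, was 0.141, which the test does not model. With 1 group, edgeR's quasi-likelihood test had no contrast to test. DESeq2 1.42.0 size factors, total counts, no filter, other count minimums and left-out libraries were tried. Named were the 10 segments with the most counts, those on the other strand, those called, the Trbv12 and Trbv13 subfamilies, the top pseudogene, and for the locus its constant genes and 2 leading other features; further segments at a limit were named after their values were seen. The members and lists were chosen with earlier results of these data known.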

Additional observations from a re-analysis of the deposited data

How the results depend on the processing

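The count of segments varying between libraries depended most on the libraries and the scaling. It was 9 of 13 with TMM (67.1% of all tested features called), 7 with DESeq2 size factors (60.8%), 13 with total counts (82.5%) and 13 of 29 with no filter (42.6%). It lay between 2 and 7 with 1 library left out, at 7 of 12 without replicate 1 (65%), 5 of 12 without replicate 2 (49.7%) and 2 of 17 without replicate 3 (32.5%). Scaled to Trbc1 and Trbc2, an alternative chosen after seeing the data, it was 4 (70.1%), fewer than the main count by over 1.5 times. That scaling removes by construction the changes that segments share with the constant genes. Each left-out library also removes counts and changes the segments tested, and the cause was not tested further. The share of Trbv13-2 was 17.2% by counts and 19.9% by counts per base, a shift larger than the SD of the 3 libraries, because its exons are shorter than those of most segments; it lay between 16.9% and 17.8% with 1 library left out. Leaving out the Trbv12 and Trbv13 subfamilies removes Trbv13-2 and only rescales the other shares, so it gave no value here. The share of Trbv31 lay between 3.46% and 4.60% with 1 library left out. TR_V_gene segments reaching the count minimum numbered 22, 21 and 17 at 3, 10 and 30 summed counts, against 3, 1 and 0 pseudogenes. No paired analysis was possible because there was 1 group. Depth limits replicate 3 most, where 3 counts are 0.862% of Trbv counts, against 0.289% and 0.168% in replicates 1 and 2.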
